A study of Mus musculus with 9 samples.

Results

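Baiap3 and its relatives of the Munc13 and CAPS families are described here in the striatum of STING knockout (STING KO), cGAS knockout (cGAS KO) and wild-type (WT) mice. The set holds 7 genes of the 54532 gene IDs counted: Baiap3, the Munc13 genes Unc13a, Unc13b, Unc13c and Unc13d, and the CAPS genes Cadps and Cadps2. All 7 were found by symbol in GENCODE M21 (GRCm38), and all 7 passed the filter on low counts. Baiap3 was chosen by its measured counts in cGAS KO and WT, where DESeq2 called it as the 1 gene of 31889 (0.00314%). Its levels are therefore given as a description, with no test, and the other 6 genes were taken by family membership. The data are polyadenylated RNA sequencing of 9 striatum libraries, 3 each from STING KO, cGAS KO and WT mice. All 3 groups are on a C57BL/6J background, both knockouts were made with CRISPR-Cas9, and the series text places the tissue after ischemic stroke. The sources used here do not state age, time after the stroke or whether a library is 1 animal, so the spread behind each p-value is that of these libraries and may be technical.

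Neurotransmitter and neuropeptide release needs vesicles to be primed, which means that the SNARE proteins of vesicle and plasma membrane are brought into a state ready to fuse when calcium enters. Munc13 proteins do this for synaptic vesicles by opening syntaxin through their MUN domain. CAPS proteins share that domain and act mainly on dense-core vesicles, which carry neuropeptides and monoamines. BAIAP3 was found as a partner of the adhesion receptor BAI1, belongs to the Munc13 family by its C2 and MUN domains, and is known in neuroendocrine cells for the return of material from endosomes to the Golgi, on which dense-core vesicle supply depends.

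Baiap3 (ENSMUSG00000047507) lies on chromosome 17, 25242659 to 25256364, minus strand (GRCm38), and spans 13.7 kb. Its compact locus contrasts with those of Unc13c (chromosome 9, 489.5 kb), Cadps (chromosome 14, 450.5 kb) and Cadps2 (chromosome 6, 576.6 kb). Unc13a (chromosome 8) spans 47.3 kb, Unc13b (chromosome 4) 205.9 kb and Unc13d (chromosome 11) 15.9 kb. Unc13c is the 1 member on the chromosome of Cgas, at a distance of 4.46 Mb. Start-site windows of 250 bases before to 50 after the start were found in RefSeq (GRCm38.p6) for 6 of the 7 genes. They are shown for Baiap3, the gene that stands apart in the counts, and for Unc13c and Cadps2, the members with the fewest and the most CpG dinucleotides, which are in capitals. Each runs 5′ to 3′ on the gene's own strand, which is minus.
Baiap3, chr17:25256315-25256614: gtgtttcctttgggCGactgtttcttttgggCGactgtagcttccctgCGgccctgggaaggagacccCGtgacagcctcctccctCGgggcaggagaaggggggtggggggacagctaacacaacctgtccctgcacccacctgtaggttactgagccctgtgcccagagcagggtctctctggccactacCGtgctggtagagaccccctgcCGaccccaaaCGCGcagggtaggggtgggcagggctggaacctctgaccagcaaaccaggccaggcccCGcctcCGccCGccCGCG
Unc13c, chr9:73968988-73969287: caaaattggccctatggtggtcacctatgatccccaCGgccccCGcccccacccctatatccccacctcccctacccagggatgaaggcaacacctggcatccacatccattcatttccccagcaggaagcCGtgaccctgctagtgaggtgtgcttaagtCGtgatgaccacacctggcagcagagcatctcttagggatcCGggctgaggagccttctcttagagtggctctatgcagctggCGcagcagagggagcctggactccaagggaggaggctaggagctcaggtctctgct
Cadps2, chr6:23839372-23839671: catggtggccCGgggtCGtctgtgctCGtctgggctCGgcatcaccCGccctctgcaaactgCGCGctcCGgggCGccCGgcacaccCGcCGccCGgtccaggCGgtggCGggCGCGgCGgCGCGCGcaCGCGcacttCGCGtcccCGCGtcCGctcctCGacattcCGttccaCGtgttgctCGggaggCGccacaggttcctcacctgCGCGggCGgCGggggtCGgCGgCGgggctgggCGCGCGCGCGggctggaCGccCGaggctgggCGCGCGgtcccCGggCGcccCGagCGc
CpG counts were 14 for Baiap3, 6 for Unc13c and 54 for Cadps2, with 17 for Cadps, 20 for Unc13b and 27 for Unc13a. Of the 32851 RefSeq windows of this length, 65.4% have no more CpG than Baiap3, 47.9% no more than Unc13c and 99.7% no more than Cadps2. The GC box GGGCGG, searched on both strands, occurs 2 times for Baiap3, 1 time for Unc13c and 3 times for Cadps2, and 35.7% of all windows hold it. The cyclic AMP response element TGACGTCA (1.8% of all windows) and the AP-1 site TGANTCA (7.8%), searched in the same way, were not among the letters of any of the 6 windows. The half-site TGACG (20.8% of all windows), which lies within the full element, occurs 3 times for Unc13a and not in the other 5 windows.

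Library totals ranged from 14129021 to 21286775 counts. STING KO replicate 2, cGAS KO replicate 2 and WT replicate 3 stood apart, with 2280 to 4723 genes at 1 to 9 counts against 7096 to 7927 in the other 6. They are called libraries of low complexity below. Tmem173, which is Sting1, had 1.05 to 2.18 CPM (counts of a gene per 1000000, TMM-scaled) in the STING KO libraries against 1.34 to 4.06 in the WT ones, with overlap. Cgas had 0.262 to 1.10 CPM in the cGAS KO libraries against 1.40 to 3.18 in the WT ones, without overlap. The sources used here do not say which exons were edited, and counts over a whole gene check the labels only weakly. The 12 markers of medium spiny neurons, the main striatal neurons, summed to 8979 to 10150 CPM in STING KO, 8963 to 11310 CPM in cGAS KO and 6018 to 10010 CPM in WT, with none at 0. The 8 cortical glutamatergic neuron markers summed to 380.9 to 750.3, 227.8 to 625 and 206.4 to 1307 CPM in the same groups, also with none at 0. The highest value is that of WT replicate 3, which also had the lowest medium spiny neuron sum.

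On the length-scaled level (TPM, counts divided by the summed length of annotated exons and scaled to 1000000), the family was led by Unc13a. Unc13a encodes Munc13-1, the main priming factor of glutamatergic terminals, and averaged 158 ± 12.4 TPM in STING KO, 136.5 ± 22.8 TPM in cGAS KO and 169 ± 77.2 TPM in WT (SD, n = 3 each). Unc13c, which encodes Munc13-3, best known from the cerebellum, averaged 90.8 ± 24.3, 89.5 ± 24.5 and 84.1 ± 17.9 TPM in the same groups. Cadps, encoding CAPS-1, averaged 38.1 ± 0.780, 32.2 ± 8.03 and 50.1 ± 25.9 TPM. Below these 3 genes came Baiap3, Cadps2 and Unc13b, whose order differed between groups. Baiap3 averaged 20.1 ± 2.24 TPM in STING KO, 24.4 ± 2.61 TPM in cGAS KO and 11.6 ± 1.78 TPM in WT. Cadps2, encoding CAPS-2, averaged 9.997 ± 2.09, 11.3 ± 9.59 and 17.8 ± 16.2 TPM, and Unc13b, encoding Munc13-2, 7.61 ± 0.904, 5.75 ± 1.11 and 12.1 ± 10.6 TPM. Neither Cadps2 nor Unc13b differed from Baiap3 beyond its spread in WT, while in both knockouts Baiap3 had the highest mean of the 3. Unc13d, encoding Munc13-4 of lymphocyte and platelet granules, was lowest, at 0.788 ± 0.333, 0.954 ± 0.553 and 1.10 ± 0.780 TPM.

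The summed level of the 7 genes was 303 to 361 TPM in STING KO, 271 to 343 TPM in cGAS KO and 245 to 515 TPM in WT, so the groups overlapped. Unc13a made up 48.6% ± 0.843 of that sum in STING KO, 45.4% ± 4.05 in cGAS KO and 48.5% ± 1.81 in WT (SD, n = 3 each). The share of Baiap3 was 6.25% ± 1.19, 8.27% ± 1.77 and 3.72% ± 1.45 in the same groups. Without division by length its mean shares were 2.77%, 3.78% and 1.62%, in the same order of groups.

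**Figure D1:**
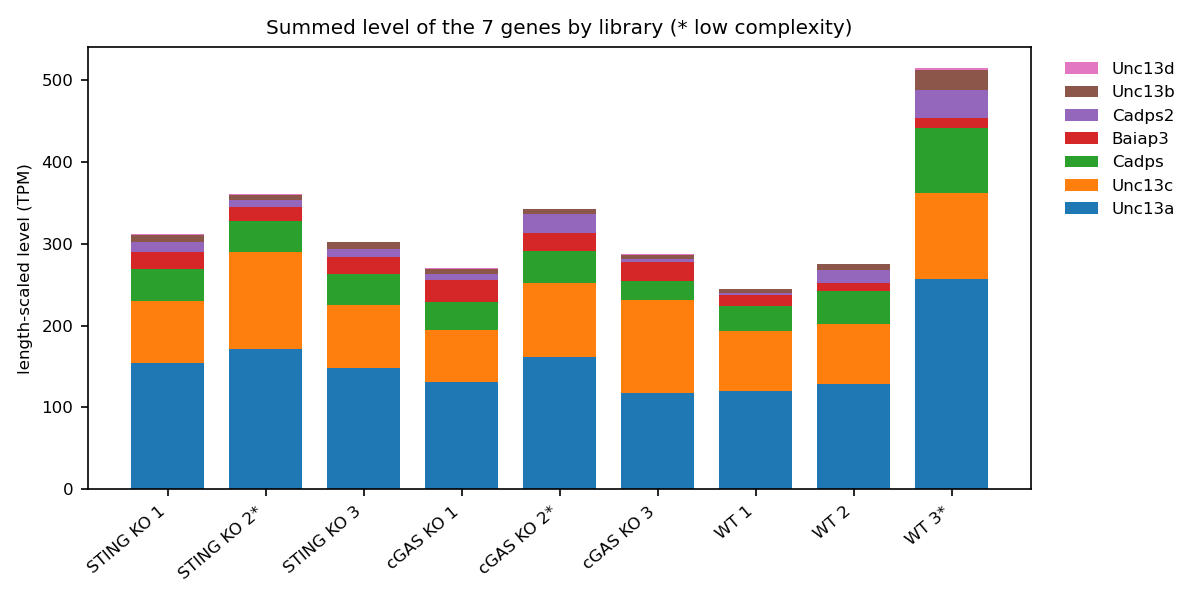
Length-scaled level (TPM) of the 7 genes, stacked for each of the 9 libraries in the order STING KO, cGAS KO, WT; an asterisk marks a library of low complexity. The summed bars reach 303 to 361 TPM in STING KO, 271 to 343 TPM in cGAS KO and 245 to 515 TPM in WT, where the tallest is WT replicate 3, and Unc13a is the largest segment in every bar.

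From here levels are CPM, which are not divided by length and are compared between libraries only. Baiap3 was at 28.2, 20.8 and 25.7 CPM in STING KO replicates 1, 2 and 3, at 35.8, 28.7 and 34.3 CPM in those of cGAS KO, and at 16.8, 12.9 and 13.4 CPM in those of WT. Every cGAS KO library was above every STING KO library, by a narrow margin between 28.7 and 28.2 CPM, and every STING KO library was above every WT library. The underlying counts were 299 to 459 in STING KO, 380 to 617 in cGAS KO and 190 to 373 in WT. Of all 17821 genes tested, 10 (0.0561%) had the 3 groups apart in this order, and since Baiap3 was chosen for the difference between cGAS KO and WT, nothing is read from its being among them.

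The log2 fold change of Baiap3 was 1.19 (SE 0.20) in cGAS KO against WT, from a mean of 32.9 ± 3.75 CPM in cGAS KO against 14.4 ± 2.12 CPM in WT (SD, n = 3 each). In STING KO against WT it was 0.79 (SE 0.20), with 24.9 ± 3.75 CPM in STING KO. In STING KO against cGAS KO it was -0.40 (SE 0.20). These 2 comparisons share WT or cGAS KO libraries with the one that chose the gene, so they are given as values too. Within both knockouts the lowest library was the one of low complexity, replicate 2. Without the 3 libraries of low complexity the 3 log2 fold changes were 1.23 (SE 0.18), 0.85 (SE 0.18) and -0.38 (SE 0.17). Over the 9 libraries the coefficient of variation of Baiap3 was 35.4%.

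**Figure D2:**
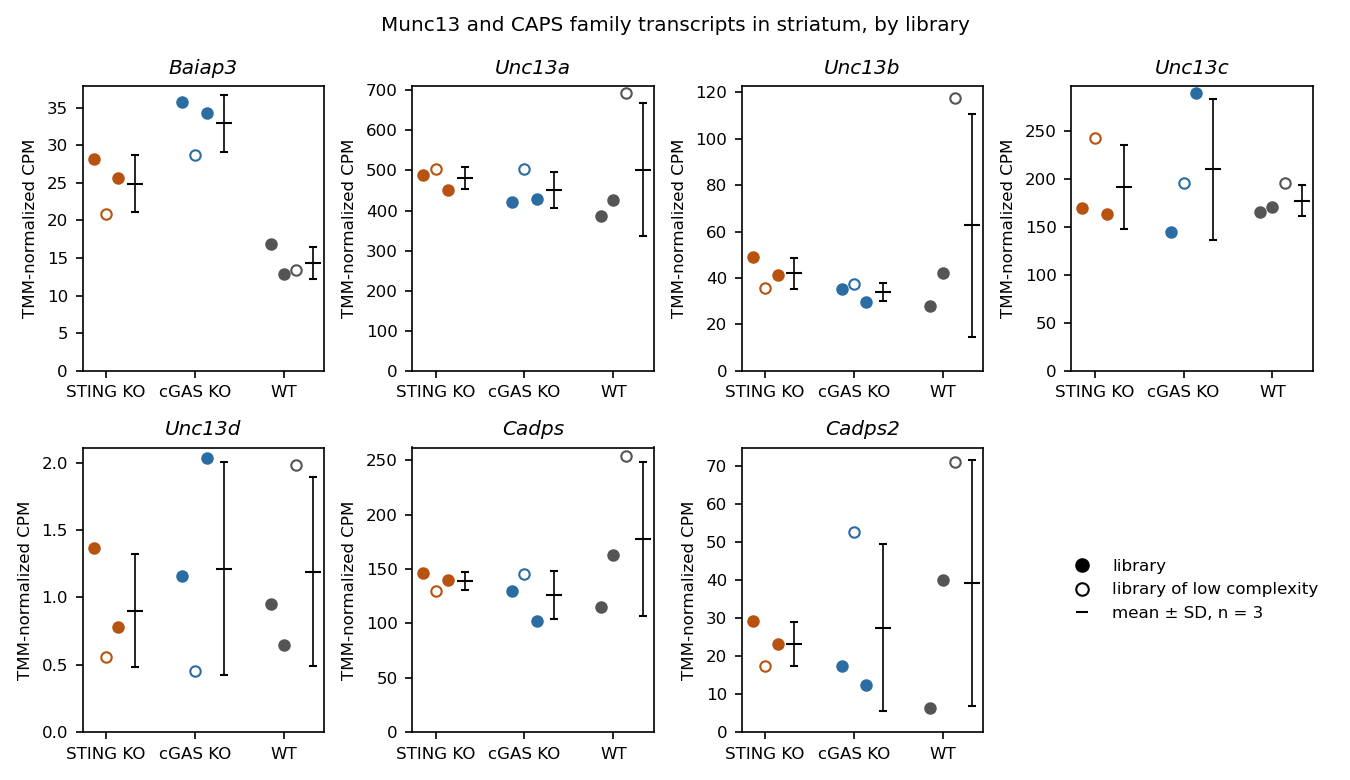
TMM-normalized CPM of each gene in each library (points, replicates 1 to 3 from left to right in each group), with open points for libraries of low complexity and the mean ± SD (n = 3) beside them. The 3 groups of Baiap3 do not overlap, with cGAS KO at 28.7 to 35.8 CPM and WT at 12.9 to 16.8 CPM, while those of the other 6 genes do.

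No relative of Baiap3 passed the threshold in any comparison. By edgeR's quasi-likelihood test with Benjamini-Hochberg adjustment over 17821 genes, 0 of the 6 were called in cGAS KO against WT (adjusted p = 0.9999 for each), STING KO against WT (adjusted p = 0.9999) or STING KO against cGAS KO (adjusted p = 1), where 0% of all genes were called in each. In 18 of 18 pairs of relative and comparison the groups overlapped, where 8%, 7.07% and 7.35% of all genes had groups apart in these comparisons. In 0 of the 18 was the unadjusted p under 0.05, which 2.03%, 1.63% and 1.45% of all genes reached. DESeq2 also called 0 of the 6 in each comparison, where it called 0.0314% of all genes for STING KO against WT and 0.0251% for STING KO against cGAS KO, and limma-voom called 0 of the 6 and 0% of all genes in each. Without the 3 libraries of low complexity edgeR called 0 of the 6, where it called 0%, 0.0227% and 0.017% of all genes. The intervals of the fold changes leave room for change, as given below for each gene.

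Among the priming factors of synaptic vesicles, Unc13a was at 490, 503 and 452 CPM in STING KO, 420, 504 and 429 CPM in cGAS KO and 386, 427 and 693 CPM in WT. The WT libraries held both the lowest and the highest value. Its log2 fold change was -0.15 in cGAS KO against WT (95% interval -0.68 to 0.37) and -0.06 in STING KO against WT (-0.59 to 0.47). Without WT replicate 3 the signs turned, to 0.15 and 0.24. Exons of Unc13a and of Colgalt1 on the opposite strand share 495 bases, or 3.9% of the exon length of Unc13a. The sources used here do not state whether the counting used strand.

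Unc13b, whose protein primes vesicles at a subset of synapses, was at 49.1, 35.7 and 41.3 CPM in STING KO, 35.3, 37.4 and 29.7 CPM in cGAS KO and 28.1, 42.3 and 118 CPM in WT. All libraries but WT replicate 3 lay between 28.1 and 49.1 CPM. The log2 fold change was -0.88 in cGAS KO against WT (95% interval -1.87 to 0.12) and -0.57 in STING KO against WT (-1.56 to 0.42). Without WT replicate 3 it was -0.05 and 0.25.

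Unc13c was at 170, 243 and 164 CPM in STING KO, 145, 196 and 290 CPM in cGAS KO and 166, 171 and 196 CPM in WT. The cGAS KO libraries held its lowest and its highest value. The log2 fold change was 0.24 in cGAS KO against WT (95% interval -0.35 to 0.84) and -0.05 without cGAS KO replicate 3, and in STING KO against WT it was 0.11 (-0.48 to 0.71).

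Unc13d, whose protein is required for granule release by cytotoxic lymphocytes and whose loss in humans causes an inherited hyperinflammatory syndrome, had 22, 8 and 14 counts in STING KO, 20, 6 and 31 counts in cGAS KO and 21, 12 and 28 counts in WT. These are 0.453 to 2.03 CPM, and 3 counts would be 0.141 to 0.212 CPM. With so few counts its fold change was hardly bounded, with a 95% interval of -1.51 to 1.60 on the log2 scale in cGAS KO against WT and -1.96 to 1.19 in STING KO against WT. The 6 cytotoxic lymphocyte markers summed to at most 0.697 CPM in any library and Prf1, perforin, was at 0 in 7 of the 9.

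Of the dense-core vesicle factors, Cadps was at 147, 130 and 140 CPM in STING KO, 130, 146 and 102 CPM in cGAS KO and 115, 163 and 254 CPM in WT. Its log2 fold change was -0.49 in cGAS KO against WT (95% interval -1.11 to 0.12) and -0.35 in STING KO against WT (-0.96 to 0.26), and without WT replicate 3 it was -0.14 and 0.00. Cadps2, known from mouse for the release of the neurotrophin BDNF, varied most in the family. It was at 29.1, 17.5 and 23.3 CPM in STING KO, 17.5, 52.5 and 12.4 CPM in cGAS KO and 6.46, 40 and 71.0 CPM in WT. WT replicate 3 was 11-fold above WT replicate 1, and the coefficient of variation over 9 libraries, 70.0%, was above that of 98.9% of the 4920 genes with a mean CPM within 2-fold of its own. The log2 fold change of Cadps2 was -0.51 in cGAS KO against WT (95% interval -2.19 to 1.16) and -0.75 in STING KO against WT (-2.43 to 0.93), and without WT replicate 3 it was 0.24 and 0.00.

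In STING KO against cGAS KO the log2 fold changes of the 6 relatives ran from -0.43 for Unc13d (95% interval -2.01 to 1.15) to 0.30 for Unc13b (-0.69 to 1.29). Unc13a, with the narrowest interval, had 0.09 (-0.43 to 0.62). Cadps2 had -0.24 (-1.91 to 1.44), and 0.64 without cGAS KO replicate 2.

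**Figure D3:**
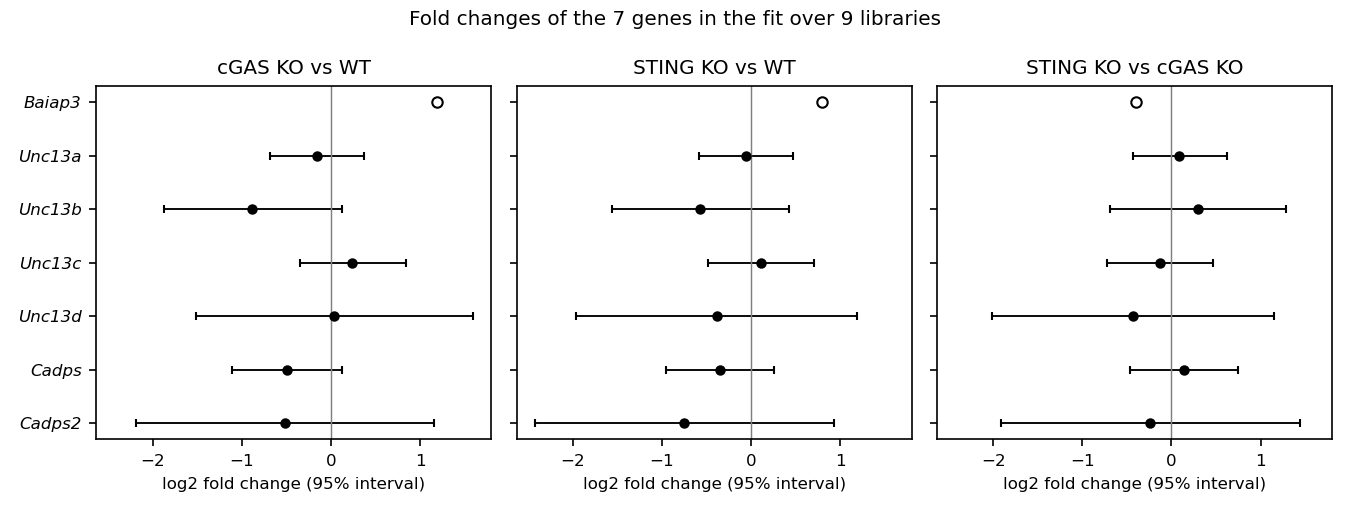
Log2 fold changes of the 7 genes from the fit over 9 libraries, 1 panel for each comparison, with 95% intervals as bars. The intervals of all 6 relatives include 0 in every panel; Baiap3 (open point, no interval) is at 1.19, 0.79 and -0.40 and is shown as a description because it was chosen for the first of these.

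Unc13b, Cadps and Cadps2 were higher in libraries with a higher summed level of cortical neuron markers. The highest of the 9 libraries for each of the 3 genes was WT replicate 3, where the 8 cortical markers also summed highest, at 1307 CPM. WT replicate 1 had the lowest cortical sum, 206.4 CPM, and the lowest Unc13b and Cadps2. Slc17a7, the vesicular glutamate transporter of cortical projection neurons, was at 486.5, 197.6 and 361.5 CPM in STING KO, 270, 344.8 and 58.0 CPM in cGAS KO and 47.3, 311.1 and 822.7 CPM in WT. It was the largest part of the sum except in WT replicate 1 and cGAS KO replicate 3, where Lamp5 was. Lamp5 did not follow the sum, at 99.4 CPM in WT replicate 1 and 76.4 CPM in WT replicate 3. The rest of the list was higher in WT replicate 3 than in WT replicate 1. In bulk tissue, fewer cells of a type and less RNA per cell cannot be told apart. Across the 9 libraries, on log2(CPM + 0.5), the cortical sum had Pearson's r = 0.87 and Spearman's rho = 0.92 with Unc13b, by exact permutation tests (two-sided p = 5.79e-05 and 0.00131). With Cadps the values were r = 0.90 and rho = 0.87 (exact permutation p = 0.000457 and 0.00451), and with Cadps2 r = 0.91 and rho = 0.90 (exact permutation p = 0.000865 and 0.00203). Adjusted over the 78 relations of the 6 relatives and 13 marker lists, the p for r was 0.00451 with Unc13b, 0.0178 with Cadps and 0.0201 with Cadps2, and the p for rho was 0.0547, 0.0879 and 0.0547, by the same exact permutation tests. Without cGAS KO replicate 3 and WT replicate 1, the 2 libraries farthest from the median cortical sum on the log2 scale, r was 0.92, 0.90 and 0.82, and without WT replicates 1 and 3, the farthest in CPM, it was 0.90, 0.90 and 0.78. Over the 6 libraries that are not of low complexity r was 0.97, 0.88 and 0.90. The sum of the 12 medium spiny neuron markers ran the other way, with r = -0.93 and rho = -0.55 for Unc13b (exact permutation adjusted p = 0.072 and 0.493), r = -0.90 and rho = -0.50 for Cadps (exact permutation adjusted p = 0.0718 and 0.577) and r = -0.59 and rho = -0.33 for Cadps2 (exact permutation adjusted p = 0.281 and 0.771). Those relations rest in part on cGAS KO replicate 3 and WT replicate 3, the 2 libraries farthest from the median. Without these 2 libraries r was -0.40, -0.19 and -0.01. Over the 6 libraries not of low complexity it was -0.61, -0.75 and -0.49. Other sums also ran the other way. Choroid plexus markers had r = -0.83 and rho = -0.77 with Cadps2 (exact permutation adjusted p = 0.061 and 0.238). Oligodendrocyte markers had r = -0.77 and rho = -0.68 with Unc13b (exact permutation adjusted p = 0.061 and 0.327). All points share the scaling of their library. The permutations treated the 9 libraries as exchangeable, without regard to group or library complexity. The part of cortical neuron, striatal neuron, choroid plexus and oligodendrocyte content in the levels of Unc13b, Cadps and Cadps2 was not tested.

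For Unc13a r with the cortical sum was 0.79 and rho was 0.72 (exact permutation adjusted p = 0.0906 and 0.288), and r was 0.35 without WT replicates 1 and 3. Unc13c went with the summed level of the 8 striatal interneuron markers instead, with r = 0.89 and rho = 0.90 (exact permutation adjusted p = 0.0201 and 0.0547). Its r was 0.84 without cGAS KO replicate 1 and STING KO replicate 2, and 0.87 over the 6 libraries not of low complexity. Over those 6 libraries r of Unc13c was higher with endothelial (0.95), medium spiny neuron (0.92) and microglia markers (0.92). Over all 9 libraries r with these 3 sums was 0.74, 0.30 and 0.12. With astrocyte markers r was 0.50 and rho 0.82 (exact permutation adjusted p = 0.371 and 0.14). The relation was thus not particular to interneuron markers. Most of that sum of 160.3 to 217.5 CPM was Nos1 (71.3 to 133 CPM) and Slc5a7 (30.2 to 53.7 CPM). The relation of Unc13c to each of the 8 markers singly was not tested. Of the 78 relations 4 passed by r and 0 by rho after adjustment. For Baiap3, whose values chose it, r with the 13 marker sums is a description with no test, and a list that is low in WT has a positive r by that choice. It ran from -0.59 for astrocyte markers to 0.83 for platelet markers, with -0.27 for cortical, 0.50 for medium spiny neuron and 0.54 for microglia markers. The 4 platelet markers summed to 2.23 to 3.36 CPM in STING KO, 3.21 to 3.95 CPM in cGAS KO and 0.849 to 2.31 CPM in WT, with Pf4 and Gp9 at 0 in at least 1 library. Itga2b (0.637 to 3.02 CPM) was most of that sum, and only 1 of the 4 passed the filter on low counts. The 7 astrocyte markers summed to 3768 to 5273 CPM in STING KO, 3769 to 5105 CPM in cGAS KO and 4229 to 7713 CPM in WT, with none at 0. Slc1a2 (2834 to 6733 CPM) was most of the astrocyte sum. The part of these cell types in the Baiap3 values was not tested. Hypothalamic neuron markers, for a region known for dense-core vesicle release, summed to at most 3.25 CPM in any library and had r = 0.42 with Baiap3, and 0.90 over the 6 libraries not of low complexity. Only 2 of these 11 markers passed the filter on low counts, and 2 were at 0 in all 9 libraries. Both r values thus rest on few counts, and nothing is read from them.

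**Figure D4:**
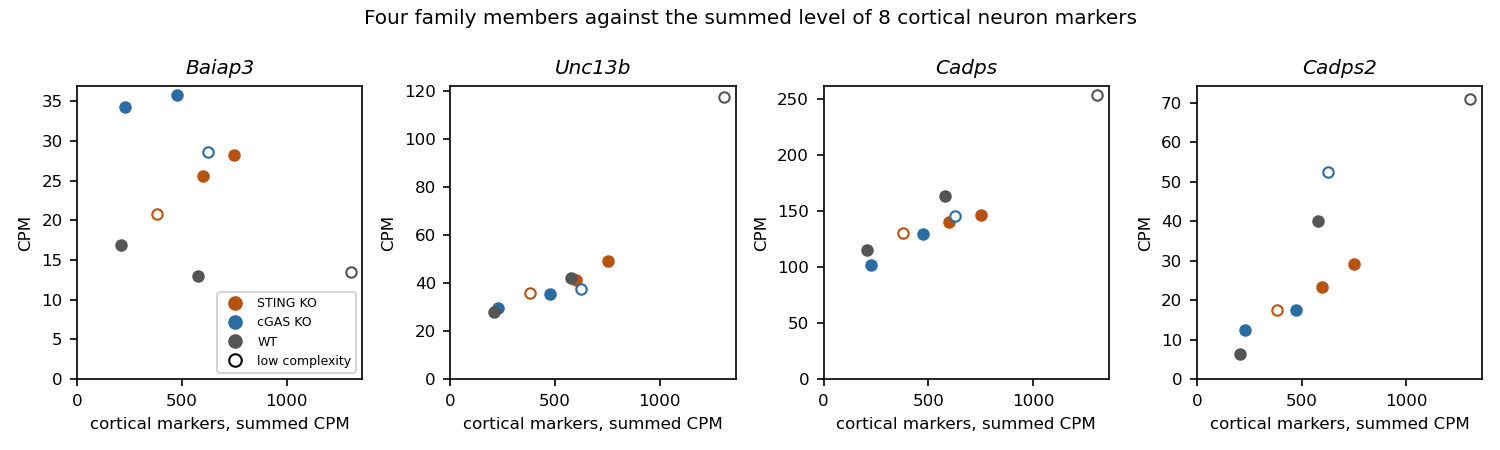
CPM of Baiap3, Unc13b, Cadps and Cadps2 (vertical axes) against the summed CPM of 8 cortical neuron markers (horizontal axes) in each of the 9 libraries, coloured by group, with open points for libraries of low complexity. Unc13b, Cadps and Cadps2 are higher where the cortical sum is higher (r = 0.87, 0.90 and 0.91 on the log2 scale), and r was -0.27 for Baiap3, whose values chose it.

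Around Baiap3, 11 protein-coding genes lie wholly within 100 kb. Of these 5 were tested, and 0 had an unadjusted p under 0.05 by edgeR in any of the 3 comparisons. Among all genes tested, 2.03% (cGAS KO to WT), 1.63% (STING KO to WT) and 1.45% (STING KO to cGAS KO) reached this. With so few neighbours and such low shares, the count of 0 cannot tell whether the locus around Baiap3 changed. Tsr3, which encodes an enzyme that modifies ribosomal RNA, on the opposite strand, shares 140 exon bases with Baiap3, or 2.7% of its exon length. Tsr3 was at 15.2, 11.1 and 15.2 CPM in STING KO, 18.9, 14.6 and 9.89 CPM in cGAS KO and 12.6, 11.5 and 4.88 CPM in WT, so its groups overlapped. Its log2 fold change was 0.57 (SE 0.37) in cGAS KO against WT and 0.51 (SE 0.37) in STING KO against WT. Gnptg, Unkl and BC003965 had log2 fold changes of -0.11 (SE 0.46), -0.06 (SE 0.17) and -0.22 (SE 0.24) in cGAS KO against WT, and 0.13 (SE 0.46), 0.08 (SE 0.17) and 0.26 (SE 0.24) in STING KO against WT. Of the 6 not tested, 4 were at 0 counts in all libraries.

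The genes whose levels were most like those of Baiap3 over the 9 libraries, by Pearson's r of log2 CPM with a prior count of 2, were Ttyh3 (r = 0.979), Tnk2 (0.925), Bcl9l (0.922), Arhgef10l (0.917), Keap1 (0.91), Bag6 (0.898), Fam171a2 (0.897), Fbxo46 (0.896), Tmem132e (0.896) and Dctn1 (0.89). Ttyh3, a chloride channel family member, was at 378, 329 and 360 CPM in STING KO, 376, 363 and 375 CPM in cGAS KO and 308, 280 and 291 CPM in WT. These r values are a description over libraries that share scaling, and the genes named rest on the choice of measure. With DESeq2's size factors 9 of the 10 were the same genes, with Spearman's rho 1, and without the libraries of low complexity 0. The relatives had r from -0.60 (Cadps) to 0.12 (Unc13c) with Baiap3, and 41.9% of all genes tested had a higher r than Unc13c.

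The other genes of vesicle release were read as 7 lists with 104 genes, of which 99 were tested. By edgeR 0 were called higher and 0 lower in each of the 3 comparisons, where 0% of all genes were called. The median log2 fold change of the 99 was -0.07 in cGAS KO against WT, -0.02 for STING KO against WT and 0.02 for STING KO against cGAS KO, beside -0.01, 0.00 and 0.01 over all genes tested. An unadjusted p under 0.05 was reached by 2, 2 and 1 of the 99, or 2.02%, 2.02% and 1.01%, beside 2.03%, 1.63% and 1.45% of all genes. Groups were apart in 3.03%, 6.06% and 9.09% of the 99, beside 8%, 7.07% and 7.35% of all genes.

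Of the 12 genes of dense-core vesicle cargo and processing, 6 had positive and 6 negative fold changes in each comparison, beside 48.5%, 49.4% and 51.1% positive among all genes, with medians of 0.07, 0.04 and 0.05 in the order cGAS KO against WT, STING KO against WT and STING KO against cGAS KO. Cpe, carboxypeptidase E, which trims prohormones, was at 1831, 711 and 1840 CPM in STING KO, 1915, 837 and 1632 CPM in cGAS KO and 1745, 1849 and 828 CPM in WT. Pcsk1n, the inhibitor of prohormone convertase 1, was at 682.6, 66.7 and 537 CPM in STING KO, 580.4, 83.9 and 262 CPM in cGAS KO and 351.6, 305.7 and 47.4 CPM in WT. In both genes the low value of each group is its library of low complexity. The 12 genes summed to 1639 to 2052 CPM in these 3 libraries and to 3367 to 4135 CPM in the other 6, and the 15 neuropeptide genes to 302.9 to 616.1 CPM and 1223 to 1527 CPM. The part of library complexity in these levels was not tested, and the groups hold 1 such library each.

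The 17 genes of dense-core vesicle membrane, biogenesis and retrieval, the list nearest to the known role of BAIAP3, had 8 positive and 9 negative fold changes in cGAS KO against WT (median -0.04), and 4 positive and 13 negative in STING KO against WT (median -0.09). Ptprn, the vesicle membrane protein IA-2, was at 659, 420 and 619 CPM in STING KO, 606, 505 and 563 CPM in cGAS KO and 523, 508 and 395 CPM in WT. Its groups overlapped in each comparison, and its log2 fold change was 0.23 (SE 0.22) in cGAS KO against WT and 0.25 (SE 0.22) in STING KO against WT. Rab2a, a small GTPase needed for dense-core vesicle maturation in worms, was at 186, 119 and 191 CPM in STING KO, 199, 146 and 206 CPM in cGAS KO and 194, 209 and 122 CPM in WT.

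In the active zone scaffold list, 6 of 17 fold changes were positive in cGAS KO against WT (median -0.11) and 9 of 17 in STING KO against WT (median 0.01). Ppfia4, a liprin-alpha, was at 125, 99.7 and 113 CPM in STING KO, 138, 132 and 154 CPM in cGAS KO and 110, 113 and 88.3 CPM in WT. The cGAS KO libraries lay above all others, with a log2 fold change against WT of 0.45 (SE 0.17, edgeR unadjusted p = 0.0251, adjusted p = 0.9999). Among 17 calcium sensors and SNARE regulators, Cplx3, the complexin of ribbon synapses and some cortical neurons, was at 5.78, 9.83 and 13.5 CPM in STING KO, 3.89, 5.96 and 0.917 CPM in cGAS KO and 1.99, 4.51 and 3.89 CPM in WT. Against WT the STING KO libraries had a log2 fold change of 1.49 (SE 0.61, edgeR unadjusted p = 0.0364, adjusted p = 0.9999). The 11 core SNARE proteins and their partners, led per length by Vamp2 and Snap25, had medians of -0.15, 0.04 and 0.07 in the 3 comparisons, and the 15 neuropeptides, 14 of them tested and led by Penk and Sst, -0.22, 0.18 and 0.57. Leaving out 1 library at a time moved the neuropeptide medians to between -0.72 and 0.10, -0.30 and 0.46, and -0.02 and 1.04. Vip, a peptide of cortical interneurons, was at 7.83, 3.35 and 6.15 CPM in STING KO, 2.32, 3.77 and 1.18 CPM in cGAS KO and 2.35, 6.34 and 11.7 CPM in WT, with a log2 fold change of -1.48 in cGAS KO against WT (SE 0.62, edgeR unadjusted p = 0.0402, adjusted p = 0.9999). Nts, neurotensin, was at 3.92, 4.18 and 3.19 CPM in STING KO, 6.15, 3.77 and 5.04 CPM in cGAS KO and 7.99, 7.41 and 4.03 CPM in WT, with -0.79 in STING KO against WT (SE 0.34, edgeR unadjusted p = 0.0465, adjusted p = 0.9999). The groups of both overlapped. The granule release partners of Munc13-4, 11 of 15 tested, had medians of -0.15, -0.12 and 0.02.

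**Figure D5:**
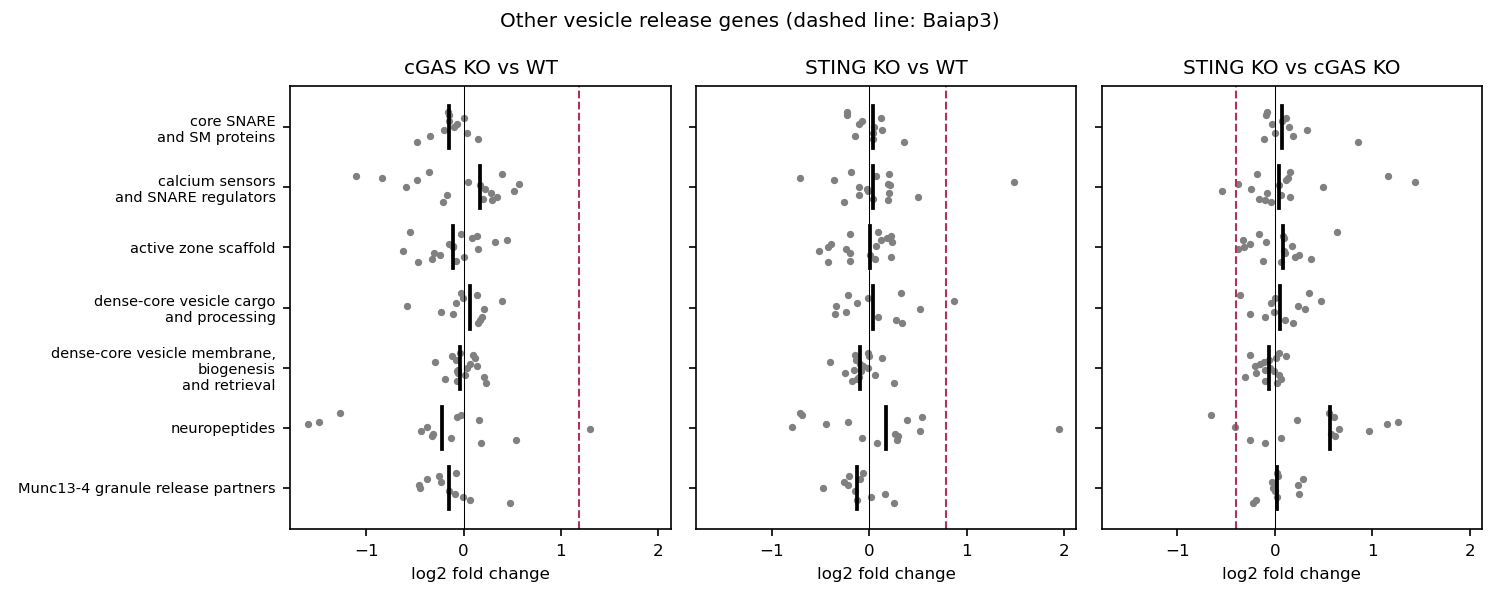
Log2 fold changes of the tested genes of 7 vesicle release lists (grey points, 1 per gene) with each list's median (black bar), in the 3 comparisons; the dashed line is Baiap3, at 1.19, 0.79 and -0.40. List medians lie between -0.22 and 0.57, both of them neuropeptides, whose medians move to between -0.72 and 1.04 when 1 library is left out, and no point passed the threshold.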

How the data were processed

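Polyadenylated RNA of 9 striatum libraries was sequenced as paired reads, per the labels' protocols. The submitters' processing notes name HISAT2, featureCounts and mm10. The sources used here do not state versions, the annotation release, the strand setting or how multi-mapped reads were counted. Each library has 1 file of counts deposited by the authors, whole numbers by gene ID whose totals differ between libraries. Of 54532 IDs, 54495 matched GENCODE M21 (GRCm38). Titles and treatment labels gave the groups and replicate numbers.

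Counts were tested with edgeR 4.0.16 (R 4.3.3), using its quasi-likelihood test on 9 libraries in 1 fit with TMM factors and filterByExpr, which left 17821 genes; the threshold is an adjusted p of 0.05. The SE comes from the fold change and its F statistic, and 95% intervals use the moderated degrees of freedom. TPM were computed from exon union lengths, here and not by the authors. Floors cover counting error only. Alternatives were DESeq2 1.42.0, limma-voom (limma 3.58.1), other scalings, other filters, fits of the 6 libraries of a comparison, a replicate block, leaving out each library and, added after the data were seen, leaving out the 3 libraries of low complexity, those with the fewest genes at 1 to 9 counts. Chi-square tests of counts found every same-group pair of libraries to differ by more than sampling noise. The fitting was also run on simulated data, the outcome of which is not given here and is not used. The members, lists and tests were chosen with earlier results of these data known. Named genes were the members, the most abundant or smallest-p genes of each list, markers that moved with a member or were a large part of a marker sum, neighbours of Baiap3 and the 10 genes most like it, of which the text gives some. The relations with cell type markers were added after the data were seen. The values of 1 neighbour of Baiap3 are not reported here.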

Additional observations from a re-analysis of the deposited data

How the results depend on the processing

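No relative of Baiap3 was called under any of the 18 alternatives in any comparison. Over them the log2 fold change of Baiap3 kept its direction and moved by less than the spread between replicates, with ranges of 1.11 to 1.33 in cGAS KO against WT, 0.69 to 0.93 in STING KO against WT and -0.50 to -0.29 in STING KO against cGAS KO. Since Baiap3 was chosen from these same counts, its ranges are a description and lend the difference no support. The edgeR fit over 9 libraries called 0 genes in each comparison (361, 291 and 258 at an unadjusted p under 0.05). DESeq2 called 1, 10 and 8 genes in cGAS KO against WT, STING KO against WT and STING KO against cGAS KO, edgeR without a count filter called 4 in both comparisons of STING KO, and edgeR on the 6 libraries not of low complexity called 0, 4 and 3; no relative was among them. The replicate block called 0 genes in each comparison and turned Unc13d in cGAS KO against WT to -0.04. Deviations from the group mean in same-numbered libraries were correlated from 0.33 to 0.50 for replicate 1. For replicates 2 and 3, which include the libraries of low complexity, they were correlated from -0.45 to 0.47. These values cannot settle whether the numbers pair the samples.

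Signs of uncalled relatives turned as follows, and the cause was not tested. Limma-voom gave 0.06 for Cadps2 in STING KO against cGAS KO. With those 6 libraries, STING KO against WT gave 0.21 for Unc13a, 0.36 for Unc13b, -0.01 for Unc13c, 0.41 for Unc13d, 0.04 for Cadps and 0.18 for Cadps2, Unc13a had 0.06 in cGAS KO against WT, and Cadps2 had 0.81 in STING KO against cGAS KO. Leaving out 1 library at a time, the ranges in cGAS KO against WT were -0.30 to 0.15 for Unc13a, -0.05 to 0.46 for Unc13c, -0.53 to 0.61 for Unc13d and -1.37 to 0.24 for Cadps2. In STING KO against WT they were -0.21 to 0.24 for Unc13a, -0.91 to 0.25 for Unc13b, -0.08 to 0.22 for Unc13c, -0.80 to 0.18 for Unc13d and -1.24 to 0.00 for Cadps2. In STING KO against cGAS KO they were -0.34 to 0.17 for Unc13c, -0.86 to 0.15 for Unc13d and -0.58 to 0.64 for Cadps2. Depth limits Unc13d, at 6 to 31 counts a library. Leaving out 1 library also moved the neuropeptide medians, as given with them.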
